A study of Mus musculus with 9 samples.

Results

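The 10 genes described here are a fixed set of natural killer (NK) cell and T cell genes, found by their symbols among the 23337 genes of the count tables, and all 10 were present in each of the 9 libraries' tables. They are the granzyme genes Gzma and Gzmb, the perforin gene Prf1, the granule membrane gene Nkg7, the chemokine gene Ccl5, the receptor genes Klrd1, Klrk1 and Il2rb, and the CD3 chain genes Cd3e and Cd3g. The libraries are RNA-seq of CD11b+ cells taken by positive magnetic selection from the femurs and tibias of male C57BL/6 mice after red cell lysis, 1 library per mouse. The PBS group (n = 3) received 3 tail vein injections of 100 µl PBS on days 1, 3 and 5, and the EnzR EVs group (n = 3) received 10 µg of EV protein in the same volume on the same days. EnzR EVs are extracellular vesicles from enzalutamide-resistant human prostate cancer cells. The EnzR EVs + HDL NPs group (n = 3) received the same vesicles and, on days 0, 2 and 4, nanoparticles that mimic high-density lipoprotein, at 1 µM by the sample labels and at a higher concentration by the study's methods. No mouse carried a tumour, and 0 groups received HDL NPs alone. By the study's methods the mice were 3 to 6 weeks old when obtained.

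Natural killer cells are innate lymphocytes that kill stressed or infected cells by releasing granules, in which perforin opens the target's membrane and granzymes, which are serine proteases, enter and cut proteins inside it. They sense targets through balanced receptors, such as NKG2D (encoded by Klrk1), which activates, and CD94 (Klrd1), which pairs with NKG2 proteins. They depend on interleukin 15, which signals through the chain encoded by Il2rb. Cytotoxic T cells share most of this equipment but recognise antigen through a T cell receptor held in a complex of CD3 chains, which NK cells do not carry on their surface. NK cells of the mouse mature in part in the bone marrow, and the mature ones carry CD11b, so they can be retained by a CD11b selection that mainly collects granulocytes and monocytes.

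Upstream sequences of 7 of the 10 genes were found in RefSeq's GRCm38.p6 promoter windows, of which the first 250 bases were searched. Ccl5, Klrd1 and Il2rb were not among them. For Nkg7, Prf1, Klrk1 and Cd3e the searched bases ran past the first annotated start of the gene. The sequences below are of the granule genes and Klrk1, shown because each holds a TGTGGT or ACCACA match, the core letters of the motif bound by RUNX factors, in its window. They run 5′ to 3′ on the gene's own strand, end before the first annotated transcript base, and have those matches in capitals. Gzma is chr13:113100982-113101231 (minus strand), Gzmb is chr14:56262335-56262584 (minus strand), Prf1 is chr10:61297586-61297750 (plus strand), Nkg7 is chr7:43436888-43437072 (plus strand) and Klrk1 is chr6:129623904-129624114 (minus strand).
Gzma: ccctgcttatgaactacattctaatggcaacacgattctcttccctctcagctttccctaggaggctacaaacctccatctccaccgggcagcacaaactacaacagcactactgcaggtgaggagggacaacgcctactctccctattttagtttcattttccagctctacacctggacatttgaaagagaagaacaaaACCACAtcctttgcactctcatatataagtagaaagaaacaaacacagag
Gzmb: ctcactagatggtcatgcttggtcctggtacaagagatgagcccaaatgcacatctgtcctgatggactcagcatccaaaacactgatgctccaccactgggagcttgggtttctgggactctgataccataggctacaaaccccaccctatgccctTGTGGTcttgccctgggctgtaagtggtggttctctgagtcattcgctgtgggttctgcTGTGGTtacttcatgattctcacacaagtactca
Prf1: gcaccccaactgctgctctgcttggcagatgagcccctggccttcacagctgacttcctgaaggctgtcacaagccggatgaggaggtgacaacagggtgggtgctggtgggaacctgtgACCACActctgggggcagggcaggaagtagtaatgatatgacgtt
Nkg7: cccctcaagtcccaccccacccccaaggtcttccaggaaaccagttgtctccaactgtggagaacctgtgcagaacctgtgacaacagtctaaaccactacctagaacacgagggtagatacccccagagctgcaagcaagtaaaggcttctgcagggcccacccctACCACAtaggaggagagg
Klrk1: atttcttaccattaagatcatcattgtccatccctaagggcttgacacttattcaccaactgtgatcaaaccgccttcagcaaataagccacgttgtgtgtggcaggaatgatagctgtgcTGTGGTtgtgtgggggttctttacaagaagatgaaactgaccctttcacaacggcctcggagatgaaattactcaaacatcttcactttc

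The RUNX letters were found, on either strand, in 5 of the 7 windows and in 14.0% of all 32851 windows. Gzmb was the only one of the 5 genes shown with 2 such matches in the printed bases. The ETS letters AGGAAG (or CTTCCT) were in the windows of Nkg7, Cd3e and Prf1, 3 of 7, against 29.5% of all windows. The T-box letters GGTGTNA (or TNACACC) were in 1 of 7 windows, that of Nkg7, against 8.61% of all, and the STAT5 letters TTCNNNGAA were also in that of Nkg7 alone, against 7.02% of all. The ETS and T-box matches of Nkg7 were not within its printed bases, so they reach past its first annotated start. No matches of different motifs overlapped (0 pairs). These are matches of letters and were not measured as bound sites.

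Depth differed between the mice, and most of these genes had low counts. Total counts were 2575776 to 18110561 per library. The shallowest, EnzR EVs replicate 1, also had 42.7% of its counts on Rn45s, the ribosomal RNA precursor, PBS replicate 1 had 20.3% and EnzR EVs replicate 3 had 14.2%, while the other 6 libraries had 0.657 to 2.87%. Levels below are CPM, read counts scaled to a common library size, with the TMM factors of edgeR, which take the composition of a library into account. On that scale a count of 0 allows, at 3 counts, up to 1.65 CPM in EnzR EVs replicate 1 but at most 0.528 CPM in the other 8. The reads carried no molecular identifiers, so floors and intervals cover counting error only. Every comparison was fitted on the 12553 genes that passed the count filter.

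The label of the set was checked against defining markers of NK cells and T cells, 2 of which, Cd3e and Cd3g, are themselves members. Ncr1, the gene of the NK cell receptor NKp46, had 421 reads over the 9 libraries and at least 7 in each. Cd3d, the third of the CD3 chain genes, had 524 reads, or 2.55 CPM per kb of exon (95% exact Poisson interval 2.34 to 2.78), close to the 2.42 CPM per kb (2.19 to 2.66) of Ncr1. The values per kb in this paragraph pool the reads of all libraries over their total counts, without TMM factors, unlike the levels per mouse below. Cd3e had 9 reads, in 4 libraries, of 113047255 in all, or 0.0195 CPM per kb (0.00892 to 0.0370), and Cd3g had 28 reads, or 0.0758 CPM per kb (0.0504 to 0.110). The 3 chains thus did not stand at one level: per length, Cd3d was above both of the others in the pooled reads. Of other T cell genes, Cd8a had 8 reads, Cd8b1 9 and Themis 0 over all libraries, while the phosphatase gene Ubash3a passed the filter. On the NK cell side, 26 of the 35 genes on the NK cell list passed the filter. The receptor genes Klrc1, Klrc2, Klrg1 and Klra1 had 63, 25, 36 and 29 reads over all libraries and did not, and Klra4, Klra8 and Gzmk had 0. A count of 0 need not mean absent RNA: the globin genes Hba-a1 and Hba-a2 also had 0, while Hbb-bs had 15349 reads. The markers thus show RNA of NK cell genes in these cells but do not show that each member comes from NK cells, and on the T cell side Cd3e, Cd3g, Cd8a and Cd8b1 were near 0.

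**Figure D1:**
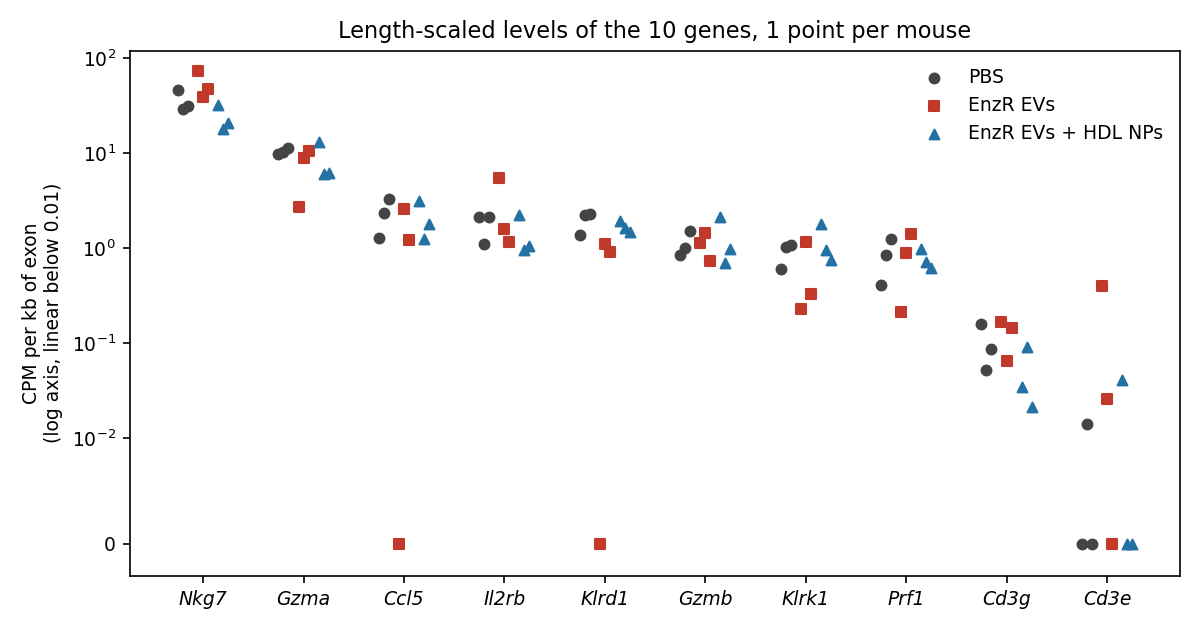
Level of each of the 10 genes in CPM per kb of merged exon (log axis, linear below 0.01), 1 point per mouse, with genes ordered by the median over the 9 mice. Nkg7 and Gzma lie above the other genes in median, 6 genes share a range around 1 CPM per kb, and Cd3g and Cd3e lie lowest.

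Scaled by exon length, the median over the 9 mice was 32.2 CPM per kb for Nkg7 (range 17.9 to 73.2) and 9.80 for Gzma (2.73 to 13.2). Nkg7 was above Gzma without overlap over the mice. Ccl5 followed at 1.82 (0 to 3.28), Il2rb at 1.61 (0.959 to 5.50), Klrd1 at 1.47 (0 to 2.32), Gzmb at 1.00 (0.706 to 2.16), Klrk1 at 0.971 (0.229 to 1.80) and Prf1 at 0.846 (0.212 to 1.42). The ranges of these 6 overlapped, so their order does not exceed the spread between mice. Cd3g was at 0.0875 (0.0214 to 0.168) and Cd3e at 0 (0 to 0.404). The exon lengths come from GENCODE M21 on GRCm38, which is not the annotation the reads were counted on, so the scale is approximate.

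The question for each gene was whether EnzR EVs changed its level in CD11b+ marrow cells and whether HDL NPs changed that response. By edgeR's quasi-likelihood test with Benjamini-Hochberg adjustment, 0 of the 8 genes tested passed an adjusted p of 0.05 in EnzR EVs against PBS, where 0% of all genes tested did. The count was also 0 of 8 for EnzR EVs + HDL NPs against PBS (0% of all genes), for EnzR EVs + HDL NPs against EnzR EVs (0%) and for both EV groups against PBS (0%). Cd3e and Cd3g did not pass the filter on low counts and were not in these fits. At an unadjusted p under 0.05 the counts were 1 (Klrd1, lower) in EnzR EVs against PBS, 0 in EnzR EVs + HDL NPs against PBS, 1 (Nkg7, lower) in EnzR EVs + HDL NPs against EnzR EVs and 0 for both EV groups, where 3.47%, 2.13%, 10.6% and 2.17% of all genes tested did. DESeq2 and limma voom also called 0 of the members in all 4 comparisons. With the replicate number as a block, EnzR EVs against PBS gave 1 gene in all and 0 members. With sample quality weights, a setting added after the values were seen, limma voom called Klrd1 and Klrk1 lower and Nkg7 higher in EnzR EVs against PBS, and Nkg7 lower in EnzR EVs + HDL NPs against EnzR EVs, where it called 1972 and 639 genes in all. Of the 8 genes, groups did not overlap for 0 in the higher and 1 in the lower direction in EnzR EVs against PBS (3.43% and 4.52% of all genes tested), for 0 and 0 in EnzR EVs + HDL NPs against PBS (6.96% and 6.21%), for 1 and 1 in EnzR EVs + HDL NPs against EnzR EVs (8.99% and 8.58%) and for 0 and 0 in both EV groups against PBS (0.701% and 0.932%). The lowest p an exact permutation test of 3 against 3 mice can give is 0.10. In bulk cells of this kind, fewer cells of a type and less RNA per cell cannot be told apart.

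**Figure D2:**
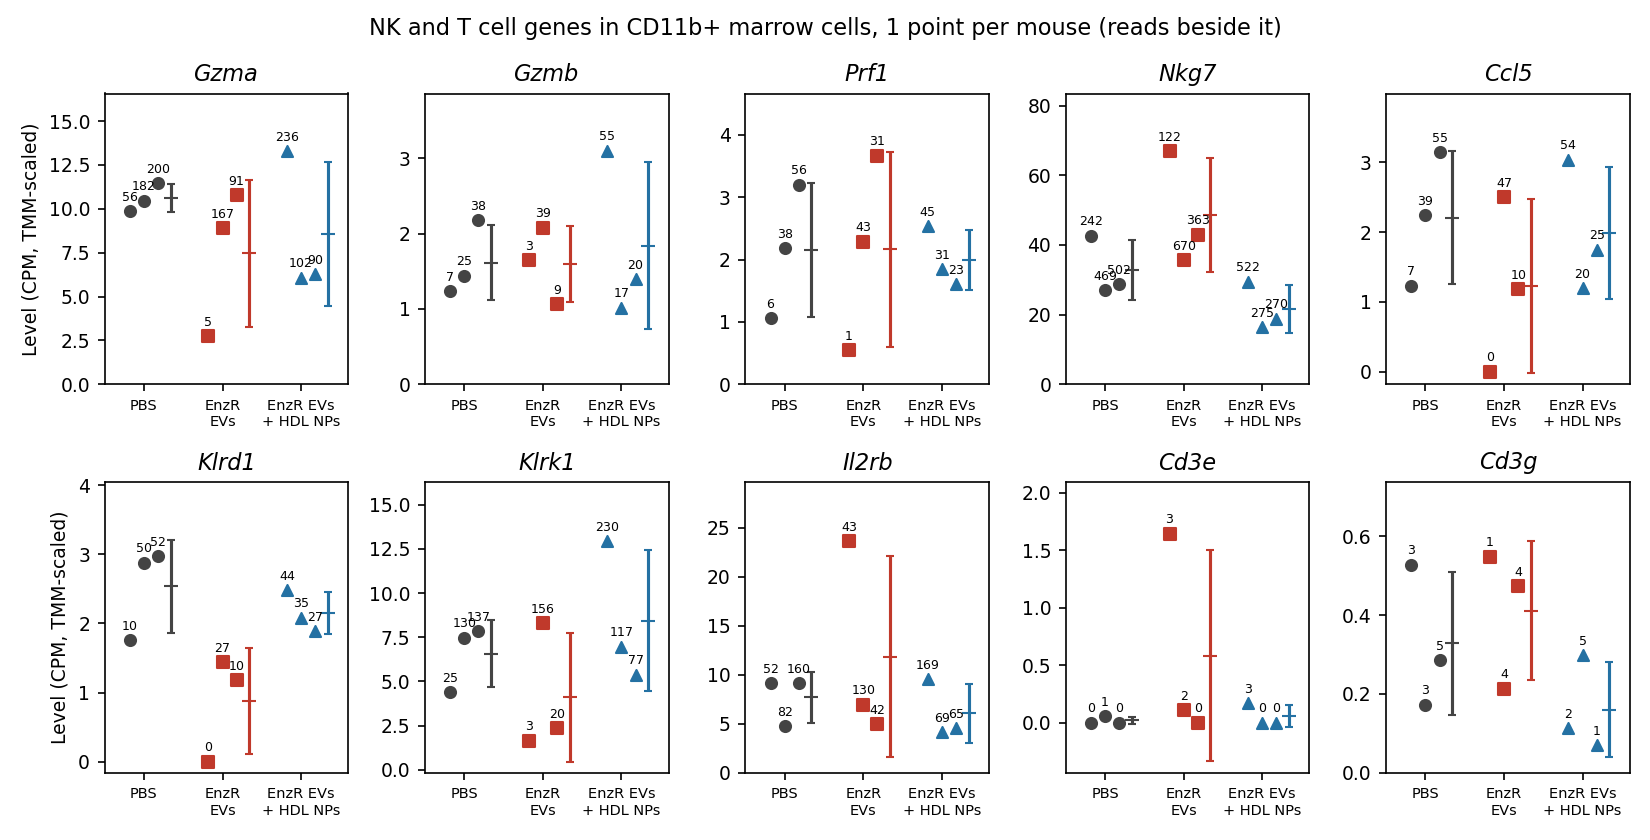
Level of each of the 10 genes in every mouse (CPM, TMM-scaled), with the raw read count beside each point, and the mean and SD (n = 3) to the right of each group. Klrd1 in the EnzR EVs group lies below both other groups, and Nkg7 in the EnzR EVs group lies above the EnzR EVs + HDL NPs group.

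Nkg7, whose product lies in the membrane of cytotoxic granules and takes part in their release, was the member with the lowest unadjusted p of any comparison. Its levels were 42.6, 27.0 and 28.7 CPM in the 3 PBS mice, 66.9, 35.7 and 42.9 CPM in the EnzR EVs mice and 29.4, 16.4 and 18.9 CPM in the EnzR EVs + HDL NPs mice. The group means were 32.8 ± 8.56 CPM, 48.5 ± 16.4 CPM and 21.6 ± 6.90 CPM (SD, n = 3 each). The EnzR EVs mice were all above the EnzR EVs + HDL NPs mice, whereas both groups overlapped PBS. The difference of EnzR EVs + HDL NPs from EnzR EVs was -1.14 on the log2 scale (SE 0.30, unadjusted p = 0.00348, edgeR adjusted p = 0.461, exact permutation p = 0.10), and it ranked 25 by p among the 12553 genes. Against PBS, Nkg7 was 0.55 (SE 0.30) in EnzR EVs and -0.59 (SE 0.30) in EnzR EVs + HDL NPs, with adjusted p of 0.928 and 1.00. The EnzR EVs mouse was higher than the PBS mouse of the same replicate number in 3 of 3 pairs, by 24.4, 8.68 and 14.2 CPM. Without EnzR EVs replicate 1, whose Nkg7 value of 122 reads is the highest level, the log2 difference between the EV groups was -0.87 (adjusted p = 0.801). Without the 3 libraries high in Rn45s it was -0.73, with EnzR EVs replicate 2 left as the only mouse of its group. Over the 9 libraries Nkg7 and Rn45s had a Pearson r of 0.79, as a description. The part of Rn45s in the result was not tested.

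The lectin-like receptor Klrd1 was the only member whose EnzR EVs mice were separate from those of both other groups. Its levels were 1.76, 2.88 and 2.98 CPM in PBS, 0, 1.44 and 1.18 CPM in EnzR EVs and 2.48, 2.09 and 1.89 CPM in EnzR EVs + HDL NPs. All EnzR EVs mice lay below all mice of the other groups, but the value of 0 came from EnzR EVs replicate 1, in which a count of 0 allows up to 1.65 CPM, and PBS replicate 1, from 10 reads, was the lowest mouse outside the EnzR EVs group. The difference was -1.18 on the log2 scale against PBS (SE 0.48, unadjusted p = 0.0335, edgeR adjusted p = 0.928, exact permutation p = 0.10) and EnzR EVs + HDL NPs was 0.91 above EnzR EVs (SE 0.48, unadjusted p = 0.0864, adjusted p = 0.472, exact permutation p = 0.10). Without EnzR EVs replicate 1, the differences were -0.97 and 0.69. Klrd1 and Rn45s had a Pearson r of -0.76 over the 9 libraries and -0.58 without EnzR EVs replicate 1. The part of Rn45s in the Klrd1 levels was not tested. Of the 8 tested members, Klrd1 and Gzma were lower and Nkg7 higher in EnzR EVs than in PBS in 3 of 3 same-numbered pairs, and the other 5 differed in sign between pairs. The share of all genes tested that kept their sign in 3 of 3 pairs was not counted, so these signs do not set the members apart. The labels do not say that same-numbered mice are pairs. Klrd1 of EnzR EVs + HDL NPs against PBS was -0.27 (SE 0.43), with overlapping mice.

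Klrk1, the gene of the activating receptor NKG2D, was spread over all groups. It stood at 4.40, 7.48 and 7.84 CPM in PBS, 1.65, 8.30 and 2.37 CPM in EnzR EVs and 12.9, 6.97 and 5.38 CPM in EnzR EVs + HDL NPs. EnzR EVs replicate 2 was above all PBS mice, the other 2 EnzR EVs mice were below them, and the groups overlapped. The edgeR log2 difference was -0.49 (SE 0.52) for EnzR EVs against PBS and 0.82 (SE 0.52, unadjusted p = 0.142, adjusted p = 0.506) for EnzR EVs + HDL NPs against EnzR EVs. These values rested on single mice: without EnzR EVs replicate 2 they were -1.61 and 1.94, and without EnzR EVs replicate 3 -0.16 and 0.49. Without the 3 libraries high in Rn45s, which leaves EnzR EVs replicate 2 as the only mouse of its group, they were 0.12 and 0.028. Across the 9 libraries Klrk1 and Rn45s had a Pearson r of -0.92 (n = 9, libraries sharing group and depth, as a description). The r with Rn45s was -0.79 for Ccl5, -0.63 for Prf1, -0.51 for Gzma, -0.38 for Gzmb and 0.55 for Il2rb. The part of Rn45s in these levels was not tested.

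Il2rb encodes the beta chain shared by the interleukin 2 and interleukin 15 receptors. Its levels were 9.15, 4.72 and 9.15 CPM in PBS, 23.6, 6.92 and 4.97 CPM in EnzR EVs and 9.51, 4.11 and 4.54 CPM in EnzR EVs + HDL NPs. The value of EnzR EVs replicate 1, from 43 reads, was more than 2-fold any other mouse, and the other 8 mice overlapped. Without that mouse, the EnzR EVs difference from PBS was -0.33 on the log2 scale, against 0.44 (SE 0.57) with it.

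The granzymes, the proteases of the cytotoxic granule, showed no separation of groups. Gzma, the most abundant of them, was at 9.86, 10.5 and 11.4 CPM in PBS, 2.74, 8.89 and 10.8 CPM in EnzR EVs and 13.3, 6.08 and 6.29 CPM in EnzR EVs + HDL NPs. The SD over the 3 mice was 0.799 CPM in PBS, 4.19 CPM in EnzR EVs and 4.10 CPM in EnzR EVs + HDL NPs. In each of the EV groups the mice fell on both sides of the lowest PBS mouse, while the EnzR EVs mouse was lower than the PBS mouse of the same replicate number in 3 of 3 pairs, with differences of -7.11, -1.58 and -0.683 CPM. Its lowest value, 5 reads, was that of EnzR EVs replicate 1. The edgeR log2 difference from PBS was -0.38 (SE 0.40) in EnzR EVs and -0.31 (SE 0.39) in EnzR EVs + HDL NPs, and 0.066 (SE 0.40) between the EV groups. Gzmb was lower, at 1.23, 1.44 and 2.17 CPM in PBS, 1.65, 2.08 and 1.06 CPM in EnzR EVs and 3.10, 1.01 and 1.40 CPM in EnzR EVs + HDL NPs, with 3 to 55 reads per mouse. All 3 groups of Gzmb overlapped, and its log2 differences were -0.026 (SE 0.52), 0.15 (SE 0.48) and 0.18 (SE 0.51) in the same order.

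Prf1, the perforin gene, was at 1.06, 2.19 and 3.20 CPM in PBS, 0.549, 2.29 and 3.67 CPM in EnzR EVs and 2.53, 1.85 and 1.61 CPM in EnzR EVs + HDL NPs. The PBS and EnzR EVs mice covered nearly the same range. Its log2 differences were 0.14 (SE 0.51) for EnzR EVs and -0.17 (SE 0.48) for EnzR EVs + HDL NPs against PBS. Ccl5, a chemokine that draws T cells, NK cells and monocytes, was at 1.23, 2.24 and 3.15 CPM in PBS, 0, 2.50 and 1.18 CPM in EnzR EVs and 3.04, 1.19 and 1.75 CPM in EnzR EVs + HDL NPs. The groups overlapped in every comparison, and the value of 0 was that of EnzR EVs replicate 1. The log2 differences of Ccl5 were -0.51 (SE 0.61) and -0.20 (SE 0.57) against PBS. The standard errors of the 8 genes ran from 0.30 to 0.61 on the log2 scale, and differences of more than 2-fold, those of Klrd1 and Nkg7, also did not pass the adjusted threshold.

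**Figure D3:**
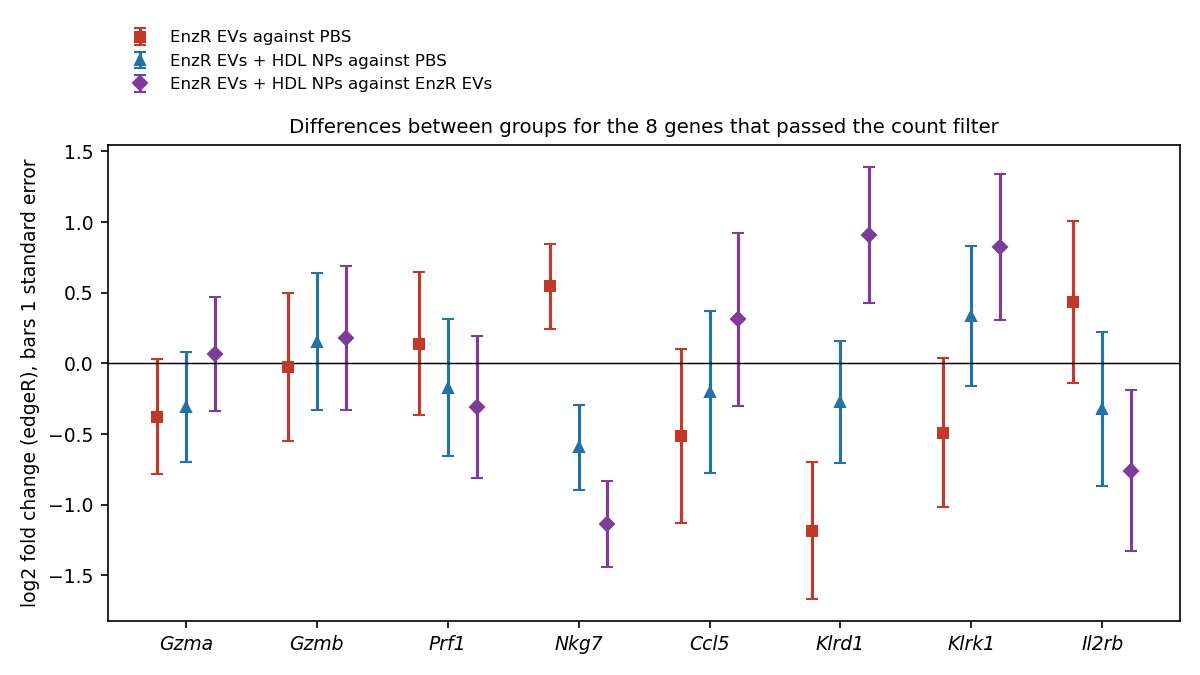
Difference in log2 expression (y axis, edgeR, all 9 libraries) of the 8 genes that passed the filter, for each of 3 comparisons, with bars of 1 standard error. Klrd1 in EnzR EVs against PBS (-1.18) and Nkg7 in EnzR EVs + HDL NPs against EnzR EVs (-1.14) lie farthest from 0, and all 24 points have an adjusted p of 0.461 or more.

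Cd3e and Cd3g, chains of the T cell receptor complex, were at the level of single reads in every group. Cd3e had 0, 1 and 0 reads in the PBS mice, 3, 2 and 0 in EnzR EVs and 3, 0 and 0 in EnzR EVs + HDL NPs. The 3 reads of EnzR EVs replicate 1, of 9 in all libraries, correspond to 1.65 CPM in that library, the shallowest. The 3 reads of EnzR EVs + HDL NPs replicate 1 correspond to 0.169 CPM. Cd3g had 3, 3 and 5 reads in PBS, 1, 4 and 4 in EnzR EVs and 2, 5 and 1 in EnzR EVs + HDL NPs. The exact permutation p of Cd3g was at least 0.20 in the 4 comparisons and that of Cd3e at least 0.40. With 3 against 3 mice this test cannot give a p below 0.10. With so few reads, it does not decide whether either gene differed. Cd3e also overlaps the antisense gene Gm48719 by 135 exon bases, and the strand setting of the counting is not given in the sources used here.

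The members did not vary together as one block. Among Gzma, Gzmb, Ccl5, Klrd1, Klrk1 and Prf1, all 15 pairs had a Pearson r of log2 CPM above 0 over the 9 libraries, with a median of 0.72 and a range of 0.092 to 0.95. These are the tested members other than Nkg7 and Il2rb, whose r was mostly below 0, so their shared sign partly follows from that choice. Nkg7 had an r above 0 with 2 of the other 7 genes (median -0.41), and the highest, 0.77, was with Il2rb. Without EnzR EVs replicate 1, 14 of the 15 pairs stayed above 0, but their median was 0.47. In the same 8 libraries Il2rb turned from 2 to 6 of 7 pairs above 0 (median 0.52), while Nkg7 had 4 of 7 (median 0.13). These values describe libraries that share groups, depth and low counts, and have no p.

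Nkg7's levels were closest to those of a gene that was not a member. Of all genes tested, Prss57, which encodes a serine protease of neutrophil azurophil granules, had the highest r with Nkg7 over the 9 libraries (0.98), and it was singled out after its values were seen. Prss57 was at 43.3, 27.3 and 29.8 CPM in PBS, 75.2, 36.7 and 49.4 CPM in EnzR EVs and 27.7, 20.5 and 20.4 CPM in EnzR EVs + HDL NPs. The mice with the most Prss57 were thus also those with the most Nkg7, and its log2 difference between the EV groups was -1.20 (SE 0.28, unadjusted p = 0.00152, edgeR adjusted p = 0.461). Nkg7 had an r of 0.96 with Mpo, myeloperoxidase, 0.75 with Prtn3, proteinase 3, and 0.31 with Elane, neutrophil elastase, which are azurophil granule genes on the granulocyte list. Without EnzR EVs replicate 1 these were 0.96, 0.97 and 0.92, and that with Prss57 was 0.97. With the mean of all 13 tested genes of the granulocyte list, over the 9 libraries, the r of Nkg7 was -0.67. With the NK cell marker Ncr1 the r of Nkg7 was 0.50 over 9 and 0.55 over 8 libraries, and with Itgam, the CD11b gene, it was -0.76 and -0.67. For Gzma the r with Prss57 was -0.38 over 9 and 0.56 over 8 libraries, and with Ncr1 0.35 and 0.86. Gzma had an r of -0.050 with Mpo, 0.31 with Prtn3 and 0.71 with Elane over 9 libraries, and of 0.85, 0.61 and 0.67 over 8. With the group means subtracted (9 libraries), Nkg7 had an r of 0.95 with Prss57, 0.93 with Mpo, 0.28 with Prtn3, -0.19 with Elane and 0.67 with Ncr1, and Gzma had -0.40, 0.069, 0.79, 0.93 and 0.27 in the same order. Of the azurophil granule genes, Prss57 and Mpo thus had an r above 0.9 with Nkg7 in all 3 settings, and Prtn3 and Elane did not. The part of granulocyte precursors in the Nkg7 level was not tested.

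**Figure D4:**
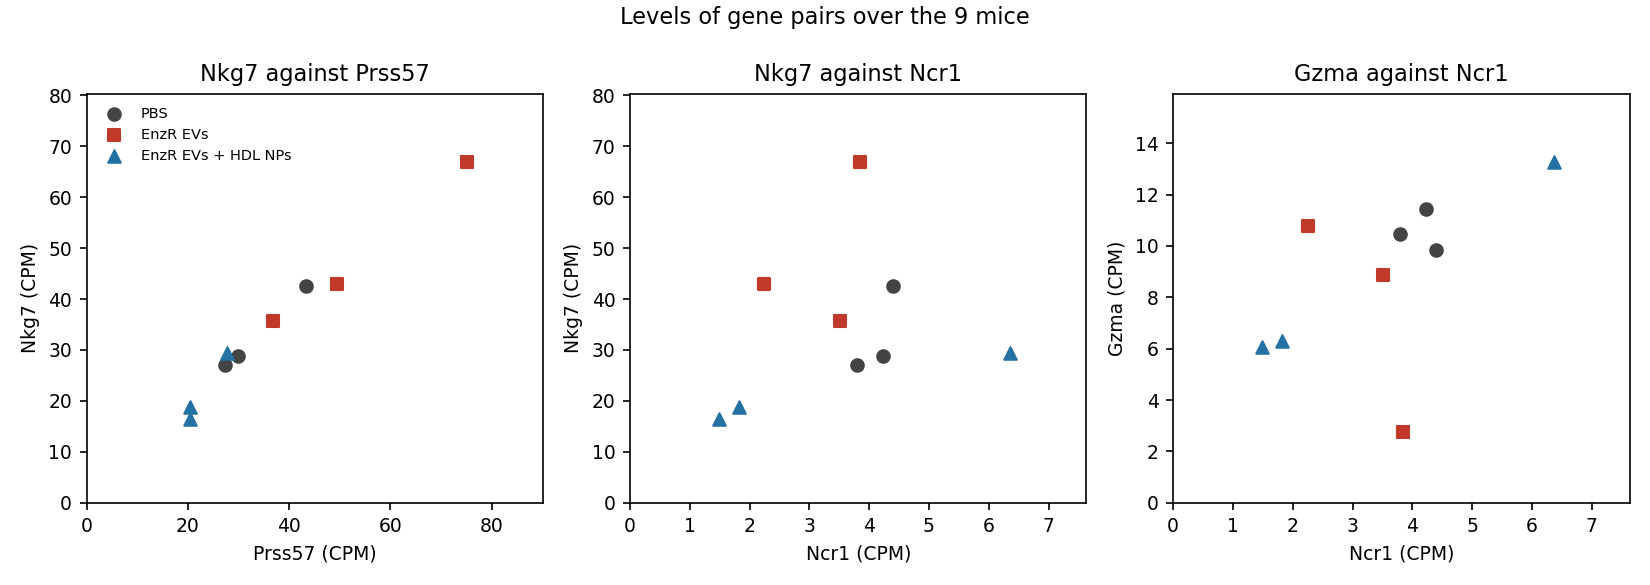
CPM of 2 genes in each of the 9 mice, for Nkg7 against Prss57, Nkg7 against Ncr1 and Gzma against Ncr1 (linear axes from 0, 1 point per mouse, marked by group). Nkg7 and Prss57 rise together over all mice (r = 0.98 on log2 CPM). In the plot of Gzma against Ncr1, EnzR EVs replicate 1 has the lowest Gzma, and EnzR EVs + HDL NPs replicate 1 the highest level of both genes.

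The genes whose levels were most like the mean of the 8 tested members over the 9 libraries were Siae (r = 0.98), Snx5 (0.96), Rps3a (0.95), Ptpla (0.94), Nprl3, Stx3, Lap3, Abhd11, Galnt6 and Gpr171 (0.93). None of these 10 is on the NK cell or T cell list. With the group means subtracted, Siae was again first (0.98), and Eif2s2, Trap1, Haus6, Snx5, Rad50, Calr, Nprl3 and Fam178a were among the 10 closest. Siae, Snx5 and Nprl3 were in both sets of 10. With the mean of the 26 tested genes on the NK cell list, Ccl5 and Gzma had an r of 0.88, Prf1 of 0.81, Klrd1 of 0.79, Klrk1 of 0.73, Gzmb of 0.52, Il2rb of -0.30 and Nkg7 of -0.37. These values were not particular to NK cell genes. With the mean of the monocyte list, Klrk1 had an r of 0.95, Ccl5 of 0.91, Klrd1 of 0.87 and Gzma of 0.75. Prf1 had 0.65, Gzmb 0.36, Il2rb -0.55 and Nkg7 -0.64 with that list. With the granulocyte list Ccl5 had 0.88, Klrd1 0.86, Prf1 0.82 and Klrk1 0.76. Gzma had 0.71, Gzmb 0.10, Nkg7 -0.67 and Il2rb -0.75 with the granulocyte list. Gzma had an r of 0.83 with the basophil and eosinophil list.

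Other NK cell genes were taken from a list of 35, of which 26 passed the filter, and 0 of the 26 passed the adjusted threshold in any comparison. Their log2 differences from PBS were above 0 for 8 and below 0 for 18 in EnzR EVs (median -0.25), and above 0 for 10 and below 0 for 16 in EnzR EVs + HDL NPs (median -0.25), where the members had medians of -0.20 and -0.24 and all genes tested -0.027 and -0.0072. Between the EV groups 18 were above and 8 below 0 (median 0.14, members 0.12, all genes 0.033). Cd244, the gene of the NK cell receptor 2B4, was at 29.0, 20.1 and 24.8 CPM in PBS, 53.8, 41.0 and 40.3 CPM in EnzR EVs and 29.9, 36.9 and 35.7 CPM in EnzR EVs + HDL NPs. Both EV groups of Cd244 were above all PBS mice, with a log2 difference of 0.86 (SE 0.20, unadjusted p = 0.00135, edgeR adjusted p = 0.928) for EnzR EVs, which DESeq2 called. Cd244 is also expressed by monocytes and other myeloid cells. The interleukin 18 receptor gene Il18rap was at -0.48 (SE 0.27) in EnzR EVs against PBS and 0.69 (SE 0.27, unadjusted p = 0.0294, adjusted p = 0.461) in EnzR EVs + HDL NPs against EnzR EVs, and Klrb1f, a lectin-like receptor gene, at 0.12 (SE 0.33) and -0.19 (SE 0.33). The summed level of the NK cell list was 252 to 342 CPM in PBS, 204 to 305 CPM in EnzR EVs and 338 to 346 CPM in EnzR EVs + HDL NPs. Il18rap alone made up 43.1 to 72.4% of that sum, and without Il18rap, Cd244 and Klrb1f the other 32 genes summed to 51.6 to 79.9 CPM in PBS, 35.1 to 56.6 CPM in EnzR EVs and 45.4 to 72.7 CPM in EnzR EVs + HDL NPs.

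Of 27 other T cell genes, 17 passed the filter and 0 passed the adjusted threshold. They were above 0 for 6 and below for 11 in EnzR EVs against PBS (median -0.33), above for 3 and below for 14 in EnzR EVs + HDL NPs against PBS (median -0.35), and above for 10 and below for 7 between the EV groups (median 0.044). The summed level of the list was 48.2 to 68.5 CPM in PBS, 45.5 to 62.0 CPM in EnzR EVs and 49.1 to 53.6 CPM in EnzR EVs + HDL NPs. Cd3d was at 3.17, 6.10 and 4.98 CPM in PBS, 1.10, 2.93 and 3.43 CPM in EnzR EVs and 4.11, 4.95 and 4.96 CPM in EnzR EVs + HDL NPs. The highest EnzR EVs mouse was just above the lowest PBS mouse, and all EnzR EVs mice were below the EnzR EVs + HDL NPs mice. Its log2 differences were -0.80 (SE 0.36, unadjusted p = 0.0504, edgeR adjusted p = 0.928) against PBS and 0.74 (SE 0.36, unadjusted p = 0.0638, adjusted p = 0.461) between the EV groups. Ubash3a was at -0.015 (SE 0.25) in EnzR EVs against PBS.

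The last list held 28 genes that act with the members: adaptors of the receptors, cytokine chains and kinases, ligands and granule proteins, of which 26 passed the filter and 0 passed the adjusted threshold. In EnzR EVs against PBS 12 were above and 14 below 0 (median -0.033), and in EnzR EVs + HDL NPs against EnzR EVs 18 were above and 8 below 0 (median 0.062). Jak3, a kinase that signals below the interleukin 15 receptor and was singled out after its values were seen, was at 37.7, 16.3 and 18.5 CPM in PBS, 69.1, 35.6 and 52.0 CPM in EnzR EVs and 16.2, 20.8 and 18.6 CPM in EnzR EVs + HDL NPs. All EnzR EVs mice were above all EnzR EVs + HDL NPs mice, and 1 of the 3 was below the highest PBS mouse. The log2 difference was -1.47 between the EV groups (SE 0.34, unadjusted p = 0.00125, edgeR adjusted p = 0.461) and 1.11 for EnzR EVs against PBS (SE 0.34, unadjusted p = 0.00747, adjusted p = 0.928). Tyrobp, the adaptor DAP12 of activating receptors on NK and myeloid cells, was at -1.03 (SE 0.39, unadjusted p = 0.0239, adjusted p = 0.461) between the EV groups. Syk was at 0.084 (SE 0.16) and Jak1 at -0.16 (SE 0.23) in EnzR EVs against PBS.

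Markers of other cell types differed between the same mice, although 0 genes of any list passed the adjusted threshold in edgeR. The summed granulocyte list was 57310, 116000 and 109200 CPM in PBS replicates 1, 2 and 3 and 32970, 125000 and 69220 CPM in those of EnzR EVs. Of the 10 monocyte genes, 8 were below 0 in EnzR EVs against PBS (median -0.31) and 10 above 0 between the EV groups (median 0.37). All 13 tested genes of the B lineage list were below 0 against PBS in both EV groups (medians -1.01 and -0.92), with summed levels of 25.2 to 46.5 CPM in PBS, 14.9 to 31.3 CPM in EnzR EVs and 12.2 to 35.6 CPM in EnzR EVs + HDL NPs. All 10 interferon response genes were above 0 against PBS in both EV groups (medians 1.02 and 1.00). Of the 10 marrow macrophage genes, 9 were below 0 in EnzR EVs and 10 in EnzR EVs + HDL NPs (medians -0.71 and -0.57), and of the 7 tested erythroid genes, 7 and 6 were below 0 (medians -1.09 and -0.23). In EnzR EVs + HDL NPs the summed basophil and eosinophil list was 3289 CPM in replicate 1 and 1327 and 1598 CPM in the others. That same replicate 1 had the highest level of its group for every tested member and for Ncr1. The sum of Gzma, Gzmb, Ccl5, Klrd1, Klrk1 and Prf1 was 37.4 CPM in that mouse and 19.2 and 18.3 CPM in the other 2, against 19.5 to 30.8 CPM in PBS. In EnzR EVs replicate 1 it was 6.59 CPM, from 12 reads, while in the other 2 mice of the group it was 25.5 and 20.2 CPM. The summed basophil and eosinophil list was 3206, 2144 and 3289 CPM in replicates 1, 2 and 3 of that group, of which the eosinophil granule gene Prg2 made up 2806, 1609 and 2717 CPM, and 6 of the 9 genes of the list were lower in replicate 1 than in replicate 2. The part of these cell types and of depth in the members' levels was not tested.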

How the data were processed

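RNA-seq was analysed from raw read counts per gene, deposited by the authors for each of 9 libraries with no normalization. By the study's methods and the submitters' processing notes, counts came from HTSeq 0.6.1p1 on the UCSC annotation, after STAR alignment to mm10. Before alignment, cutadapt 1.13 cut off adapters, and low-quality and rRNA reads were discarded. Library totals were 2575776 to 18110561 counts.

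Groups came from the sample labels. In edgeR 4.0.16 (R 4.3.3), 12553 of 23337 genes passed the default filter, libraries were scaled by TMM, and 1 robust quasi-likelihood fit to all 9 libraries gave the comparisons, with Benjamini-Hochberg adjustment over all tested genes and a threshold of 0.05. Libraries are separate mice. In EnzR EVs against PBS, same-numbered mice deviated together from their group means over all genes (3 of 3 pairs with r over 0.1, from 0.13 to 0.49). Mice of different numbers did so too for PBS replicate 3 with EnzR EVs replicate 2 (0.43) and PBS replicate 2 with EnzR EVs replicate 3 (0.16). The remaining pairs of different numbers ran from -0.53 to -0.17. The labels do not say that the numbers mark pairs, and a fit with the replicate number as a block was read only as an alternative. The members' log2 CPM (prior count 2) were compared one at a time by exact permutation of the mice, two-sided. Correlations used the same scale. The script was tested on simulated data. DESeq2 1.42.0, limma 3.58.1, other scalings and filters and leaving out libraries were alternatives. The members and lists were chosen with earlier results of these data known. Genes named are all 10 members, the 3 tested genes with the highest mean log2 CPM of the NK cell, T cell and partner lists, the 10 genes most like the members' mean, and defining markers of other cell types; Jak3, Prss57 and single members of other lists were added after their values were seen. Some genes that this rule names are not reported here. Of the lists' genes, Ly6g, Hbb-bt and Ahsp were not matched and are not analysed here. Exon lengths came from GENCODE M21 and promoters from RefSeq.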

Additional observations from a re-analysis of the deposited data

How the results depend on the processing

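The number of members past the adjusted threshold was 0 under every alternative run except limma voom with weights on sample quality (an alternative chosen after seeing the data), which called 3 in EnzR EVs against PBS (Klrd1 and Klrk1 lower, Nkg7 higher) and 1 in EnzR EVs + HDL NPs against EnzR EVs (Nkg7 lower). Over all genes that fit called 1972 genes in EnzR EVs against PBS, 8 for EnzR EVs + HDL NPs against PBS, 639 between the EV groups and 88 for both EV groups against PBS. DESeq2 called 14, 2, 1 and 14 genes in the same order, and DESeq2 on the compared groups alone 4, 57 and 20 in the first 3. No filter on low counts gave 1 gene in EnzR EVs against PBS, and edgeR on the compared groups alone 1 between the EV groups. Leaving out the 2 lowest totals (added after seeing the data) gave 5, 0, 1 and 5 genes. Leaving out 1 replicate at a time gave 0 to 2 genes in EnzR EVs against PBS (2 without PBS replicate 1), 0 to 1 between the EV groups and 0 to 1 for both EV groups. Leaving out the 3 libraries over 10% Rn45s (also added) left EnzR EVs with replicate 2 alone, so the number of genes called by that fit is not given. The cause of these differences was not tested.

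Klrd1 stayed below 0 in EnzR EVs against PBS in the 23 alternatives that fitted it (-1.53 to -0.97). Nkg7 stayed below 0 in EnzR EVs + HDL NPs against EnzR EVs in all 24 (-1.45 to -0.73). The strictest filter on low counts left out Klrd1, which had 0 reads in EnzR EVs replicate 1. Other members turned direction, among them Il2rb, which was at 0.44 in EnzR EVs against PBS and -0.76 between the EV groups. In the fit without the 3 libraries high in Rn45s, EnzR EVs replicate 2 was the only mouse of its group, so its EnzR EVs values rest on 1 mouse. In EnzR EVs against PBS, Gzmb was 0.0043 with limma voom and 0.20 without the 3 libraries high in Rn45s, Klrk1 0.12 and Prf1 -0.23 without those 3, and Il2rb -0.19 without the 2 lowest totals and -0.22 with quality weights. In EnzR EVs + HDL NPs against PBS, Gzmb was -0.20 with quality weights. Between the EV groups, Gzma was -0.041 with limma voom, -0.19 without the 2 lowest totals, -0.052 without the 3 libraries and -0.40 with quality weights, Gzmb -0.0030 with limma voom and -0.17 without the 3 libraries, Ccl5 -0.32 without the 3 libraries, and Il2rb 0.0041 without the 2 lowest totals. For both EV groups, Gzmb was -0.043 and Nkg7 0.067 without the 2 lowest totals, and -0.33 and 0.052 with quality weights. Klrk1 was 0.13 without the 3 libraries. Il2rb was -0.13 with limma voom, -0.029 by library size only, -0.19 without the 2 lowest totals, -0.092 without the 3 libraries and -0.25 with quality weights.

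With 1 replicate left out at a time, Gzmb ranged from -0.41 to 0.27, Prf1 from -0.31 to 0.53 and Il2rb from -0.33 to 0.84 in EnzR EVs against PBS, and Klrk1, without a turn, from -1.61 to -0.16. In EnzR EVs + HDL NPs against PBS the ranges were -0.44 to 0.44 for Gzmb, -0.63 to 0.13 for Ccl5, -0.099 to 0.57 for Klrk1 and -0.43 to 0.22 for Prf1. Between the EV groups they were -0.40 to 0.35 for Gzma, -0.44 to 0.56 for Gzmb, -0.13 to 1.15 for Ccl5, -0.54 to 0.14 for Prf1 -1.28 to 0.0077 for Il2rb and, without a turn, 0.39 to 1.94 for Klrk1. For both EV groups they were -0.23 to 0.35 for Gzmb, -0.16 to 0.19 for Nkg7, -0.64 to 0.089 for Klrk1, -0.27 to 0.37 for Prf1 and -0.32 to 0.26 for Il2rb.

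All 3 same-numbered pairs had correlated deviations (r over 0.1) only in EnzR EVs against PBS. There PBS replicate 3 and EnzR EVs replicate 2, of different numbers, also had an r of 0.43. In the other comparisons 1 of 3 (EnzR EVs + HDL NPs against PBS) and 2 of 3 (between the EV groups) same-numbered pairs were over 0.1. Of the 9 libraries, 5 correlated best with their own number. With the replicate block, 1 gene was called in EnzR EVs against PBS and 2 for both EV groups. In that fit Gzmb was 0.018 in EnzR EVs against PBS and -0.0091 between the EV groups, and Prf1 was 0.042 and Il2rb -0.071 for both EV groups. The block changed no call of a member. The depth of EnzR EVs replicate 1 and the low counts of most members may limit what could be detected, and their part in the calls was not tested.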
